A study of Rattus norvegicus with 20 samples.

Results

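The genes described here are 10 genes of macrophages, among them the 3 genes that encode complement C1q: Lyz2, Aif1, Cd68, Csf1r, C1qa, C1qb, C1qc, Cd14, Igsf6 and Dok3. They were found on a rat expression array by the transcript that each probe is assigned to, and they are 10 of 12459 genes with a usable probe, or of 15699 gene symbols on the array. The choice was not independent of the measurements. Igsf6 and Dok3 had been picked for small p-values at 60 mg/kg/day against control, and the others belong to a macrophage list that had been looked at in the same ovaries at 20 and 60 mg/kg/day. Differences from control at these doses are therefore given with their standard errors (SE) and without a test.

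Whole ovaries were taken from 20 female Sprague Dawley rats at 46 days of age, each from a litter of its own per the labels. Their mothers had eaten control feed or feed with brominated flame retardants from before mating until weaning at day 21, so exposure was perinatal, through the mother, and had ended before the ovaries were collected. The flame retardants were given as a mixture of the polybrominated diphenyl ether products DE-71 (52.1% of it), BDE-209 (44.2%) and DE-79 (0.4%) with hexabromocyclododecane (3.3%). Feed for the lowest dose held 0.75 mg of the mixture per kg and was meant to deliver 0.06 mg per kg body weight per day, feed with 250 mg was meant to deliver 20, and feed with 750 mg was meant to deliver 60. These doses name the groups, of 5 control rats (dose 0), 4 rats at the lowest, 5 at the middle and 6 at the highest dose, and all groups shared strain, sex, age and tissue. The labels say nothing of the stage of the ovarian cycle.

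Macrophages are resident in the ovary, where they take up dying granulosa cells of follicles that degenerate and gather in corpora lutea as these regress. They depend on the receptor encoded by Csf1r, which binds the growth factors CSF1 and IL-34. C1q is the recognition molecule of the classical complement pathway, assembled from A, B and C chains that are made largely by macrophages, and it binds antibody complexes and the surface of dying cells. Because RNA came from the entire ovary, fewer macrophages and less RNA per macrophage cannot be told apart in any value below.

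Values are log2 processed intensities minus log2 of the 75th percentile of the same array, so a level of 0 is a probe as bright as that percentile and a difference of 1 is a doubling of brightness. The 75th percentile ran from 1158 to 1737 intensity units, and 74.8% to 83.4% of spots were well above background. All 12 probes of the 10 genes were well above background on every one of the 20 arrays and none was saturated, so no value is a bound. The arrays lay on 3 slides, of 7, 6 and 7 arrays, and every slide held all 4 groups. Granulosa, theca, luteal and oocyte marker genes were detected in the ovaries (8, 8, 11 and 8 genes kept of the respective lists). On 9 arrays, 2, 1, 3 and 3 at the rising doses, the scanner header gives a slope of 0 for the spike-in controls, RNAs of known amount added to each sample.

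Upstream sequences are shown for a pair of C1q genes and for Lyz2 and Igsf6, since the levels of these 4 genes, unlike those of Cd14, ran together across ovaries and since the C1q genes lie side by side. In the rat annotation of assembly GRCr8, C1qb, C1qc and C1qa are consecutive protein-coding genes on chromosome 5. The 250 bases before the annotated start of each gene are given 5′ to 3′ on the gene's strand, as RefSeq holds them for GRCr8, in lower case with GAGGAA or its reverse complement TTCCTC in capitals. That hexamer is a form of the purine-rich box recognised by PU.1, the transcription factor that macrophage development depends on.
C1qa, chr5:154419934-154420183, minus strand: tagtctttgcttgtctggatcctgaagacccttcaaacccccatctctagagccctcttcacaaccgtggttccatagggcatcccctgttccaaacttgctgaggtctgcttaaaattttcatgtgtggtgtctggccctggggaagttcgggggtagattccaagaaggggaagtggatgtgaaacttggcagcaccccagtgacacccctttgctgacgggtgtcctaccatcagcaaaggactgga
C1qb, chr5:154407828-154408077, minus strand: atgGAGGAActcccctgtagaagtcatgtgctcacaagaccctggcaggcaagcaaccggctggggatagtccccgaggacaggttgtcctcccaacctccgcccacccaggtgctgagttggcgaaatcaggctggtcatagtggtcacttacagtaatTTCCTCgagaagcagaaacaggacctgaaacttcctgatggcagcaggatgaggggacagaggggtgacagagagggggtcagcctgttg
Lyz2, chr7:54798012-54798261, minus strand: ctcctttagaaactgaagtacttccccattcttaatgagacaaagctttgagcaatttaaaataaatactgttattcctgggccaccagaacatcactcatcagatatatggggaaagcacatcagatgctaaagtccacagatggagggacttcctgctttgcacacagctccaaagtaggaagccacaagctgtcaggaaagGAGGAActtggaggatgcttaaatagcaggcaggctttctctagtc
Igsf6, chr1:185051957-185052206, minus strand: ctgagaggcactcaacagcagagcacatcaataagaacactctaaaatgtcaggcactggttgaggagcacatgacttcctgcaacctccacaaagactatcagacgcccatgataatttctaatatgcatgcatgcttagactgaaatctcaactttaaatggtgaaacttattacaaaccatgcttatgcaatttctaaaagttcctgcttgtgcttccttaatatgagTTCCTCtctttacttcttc

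The hexamer was searched on both strands. It was found in 6 of the 8 member genes that the promoter table holds, Lyz2, Cd68, Csf1r, C1qb, Cd14 and Igsf6, and in 23.3% of all 33469 promoters of the same length. C1qb has it at 247 and at 90 bases before the start, Lyz2 at 46 and Igsf6 at 19 bases before the start. C1qa, which lies beside C1qc and C1qb, has no match in this window, and neither does Dok3. The AP-1 motif TGANTCA was found in Cd68 alone among the 8 members and in 6.34% of all promoters, and TATAAA in 0 of the 8 against 12.9%. A match is a string of letters and was not tested for binding.

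Csf1r encodes the receptor that macrophages need for survival. Its log2 level in the control ovaries of replicates 1 to 5 was -3.13, -2.56, -2.55, -2.70 and -2.65, and at the lowest dose it was -2.53, -3.07, -1.77 and -2.25. The middle dose gave -1.84, -2.41, -2.17, -2.34 and -2.42, and the highest dose ranged from -2.90 through a median of -2.14 to -1.58. All 5 arrays at 20 were above all 5 controls, as were 5 of 6 arrays at 60 and 3 of 4 at 0.06. Among all probes, 0.361% had every array at 20 above every control. The differences from control were 0.31 ± 0.25 (SE), 0.48 ± 0.23 and 0.54 ± 0.22 on the log2 scale at the 3 rising doses. A second, dimmer Csf1r probe did not follow the first, with r of 0.07 between them over the 20 arrays. It gave differences of -0.05 ± 0.17, 0.21 ± 0.16 and -0.13 ± 0.15, opposite in sign at 0.06 and at 60, so the direction for Csf1r rests on 1 of its 2 probes.

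Lyz2 encodes lysozyme, a bactericidal enzyme secreted in quantity by macrophages. Control levels were 3.18, 4.10, 3.95, 3.48 and 3.67 (log2), and those at 0.06 mg/kg/day were 3.90, 3.23, 4.57 and 4.06. Ovaries at 20 had 4.33, 4.31, 4.31, 4.15 and 3.89, and those at 60 lay between 3.81 and 4.62 with a median of 4.14. The 20 and 60 groups sat in the upper part of the range, with 4 of 5 and 4 of 6 arrays above the highest control, while the 0.06 group spanned nearly the whole of it. The log2 differences from control were 0.27 ± 0.23, 0.52 ± 0.22 and 0.53 ± 0.21.

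Aif1 encodes an actin-binding protein of macrophages and microglia. Its level was 0.92, 1.00, 1.43, 1.08 and 0.86 (log2) in the controls and 1.33, 0.56, 2.09 and 1.73 at 0.06 mg/kg/day. At 20 it was 1.93, 1.87, 1.71, 1.32 and 1.75, and at 60 it ran from 1.15 through a median of 1.58 to 2.26. The controls were close together, 4 of 5 arrays at 20 and 4 of 6 at 60 were above all of them, and the 0.06 group held both the lowest array of all and one of the highest. The differences were 0.37 ± 0.27, 0.66 ± 0.25 and 0.61 ± 0.24 log2, and the gene's other probe ran with the first at r of 0.99.

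Cd68 encodes a glycoprotein of the phagocyte lysosome. Its level was 0.00, 0.47, 0.92, 0.41 and -0.32 (log2) in the controls and 0.31, -0.46, 1.26 and 0.96 at 0.06 mg/kg/day. In the 20 group it was 0.89, 1.09, 1.03, 0.15 and 1.25, and at 60 the lowest, median and highest were 0.30, 1.17 and 1.85. Cd68 had the widest spread of the members, 2.31 log2 from its lowest to its highest array, or 4.96-fold, and each exposed group overlapped the controls. Differences from control were 0.22 ± 0.36, 0.59 ± 0.33 and 0.79 ± 0.32 log2.

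**Figure D1:**
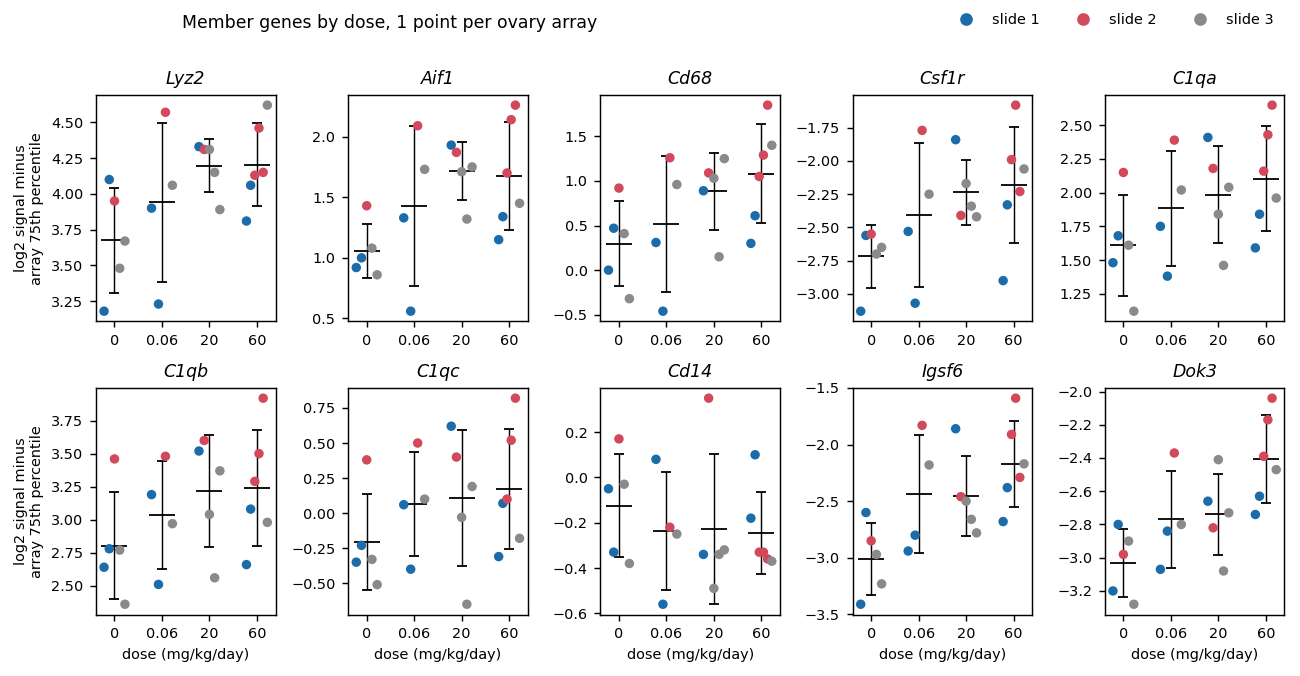
Log2 level relative to the array's 75th percentile (y axis) of each of the 10 genes by dose in mg/kg/day (x axis), 1 point per ovary coloured by slide, with bars for the group mean ± SD (n = 5, 4, 5 and 6). The control mean is the lowest of the 4 group means in every panel except that of Cd14. Points of an exposed group spread widely in some panels (SD 0.76 for Cd68 at 0.06) and less in others (0.19 for Lyz2 at 20).

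The C1q genes encode the A, B and C chains. C1qa levels were 1.48, 1.68, 2.15, 1.61 and 1.12 (log2) in the controls, 1.75, 1.38, 2.39 and 2.02 at 0.06, and 2.41, 2.18, 1.84, 1.46 and 2.04 at 20 mg/kg/day. At 60 the lowest, median and highest C1qa levels were 1.59, 2.06 and 2.65. Control replicate 3 was the highest control, on slide 2, and the exposed groups overlapped the controls. For C1qa the log2 differences were 0.28 ± 0.25, 0.37 ± 0.23 and 0.49 ± 0.22.

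C1qb levels were 2.64, 2.78, 3.46, 2.77 and 2.36 in the controls and 3.19, 2.51, 3.48 and 2.97 at 0.06 mg/kg/day (log2). They were 3.52, 3.60, 3.04, 2.56 and 3.37 at 20, and from 2.66 through 3.18 to 3.92 at 60. Again only control replicate 3 stood among the higher arrays, and 2 of 5 arrays at 20 and 2 of 6 at 60 were above every control. C1qb differed from control by 0.24 ± 0.27, 0.42 ± 0.25 and 0.44 ± 0.24 log2.

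C1qc levels were -0.35, -0.23, 0.38, -0.33 and -0.51 in the controls and 0.06, -0.40, 0.50 and 0.10 at 0.06 mg/kg/day (log2). They were 0.62, 0.40, -0.03, -0.65 and 0.19 at 20, where replicate 4 was the lowest array of all, and from -0.31 through 0.08 to 0.82 at 60. The groups overlapped at every dose. The differences for C1qc, 0.28 ± 0.27, 0.31 ± 0.25 and 0.38 ± 0.24 log2, were smaller than 2 SE at each dose.

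Cd14, the co-receptor that hands bacterial lipopolysaccharide to TLR4, was the exception. Its levels were -0.05, -0.33, 0.17, -0.03 and -0.38 in the controls and 0.08, -0.56, -0.22 and -0.25 at 0.06 mg/kg/day (log2). At 20 they were -0.34, 0.35, -0.49, -0.34 and -0.32, and at 60 they ran from -0.37 through -0.33 to 0.10. The control mean was the highest of the 4, by less than the spread within groups, and only 1 of 6 arrays at 60 was above the control median. Differences from control were -0.11 ± 0.17, -0.10 ± 0.16 and -0.12 ± 0.15 log2, and Cd14 had the narrowest range of the members, 0.91 log2.

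Igsf6 encodes an immunoglobulin-like membrane protein of myeloid cells. Control levels were -3.41, -2.60, -2.85, -2.97 and -3.23 (log2), and levels at 0.06 mg/kg/day were -2.94, -2.80, -1.83 and -2.18. At 20 they were -1.86, -2.46, -2.50, -2.66 and -2.78, and at 60 the lowest, median and highest were -2.68, -2.23 and -1.59. Every array at 0.06, 20 and 60 lay above the control median, and 2 of 4, 3 of 5 and 5 of 6 of them lay above the highest control. The differences of 0.57 ± 0.25, 0.56 ± 0.24 and 0.84 ± 0.23 log2 correspond to 1.49-fold, 1.47-fold and 1.79-fold.

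Dok3 encodes an adaptor protein that restrains signalling from immune receptors in B cells and macrophages. Control levels were -3.20, -2.80, -2.98, -2.90 and -3.28 (log2), and those at 0.06 mg/kg/day were -3.07, -2.84, -2.37 and -2.80. At 20 they were -2.66, -2.82, -2.41, -3.08 and -2.73, and at 60 they ran from -2.74 through -2.43 to -2.04. All 6 arrays at 60 were above all 5 controls, which 0.215% of all probes also showed in that contrast. Dok3 differed from control by 0.26 ± 0.17, 0.29 ± 0.16 and 0.62 ± 0.15 log2, and 0.62 is 1.54-fold.

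In order of group means, control was lowest for 9 of the 10 genes and highest for Cd14. The order control, 0.06, 20, 60 held for Lyz2, Cd68, Csf1r, C1qa, C1qb, C1qc and Dok3, while Aif1 was highest at 20 and Igsf6 at 0.06 stood just above 20. For Csf1r both statements hold for the brighter probe only. The members were partly chosen at 20 and 60 against control, which favours this order. The share of all genes with the same order is not given here. C1qa, C1qb and C1qc ran together at r of 0.95 to 0.97, so they are not separate observations. The neighbours in this order that were tested did not pass limma. For C1qc the distance from the lowest to the highest group mean, 0.38 log2, was below the mean SD within groups of 0.41, and for C1qb the values were 0.44 and 0.42. Dok3 had the largest distance for its spread, 0.62 against 0.25, followed by Igsf6 with 0.84 against 0.39. Both genes had been picked for small p-values at 60 against control, so this ranking follows from the choice.

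Against control, 9 of the 10 genes were higher at each dose, where 43.6%, 57.8% and 39.6% of all 23274 probes were higher from the lowest dose to the highest. Csf1r counts here by its brighter probe, while its second probe was lower than control at 0.06 and at 60 (-0.05 and -0.13 log2). The mean difference over the 10 genes was 0.27, 0.41 and 0.51 log2 and their median difference 0.27, 0.45 and 0.53, beside medians of -0.03, 0.03 and -0.04 over all probes. The 3 comparisons share the control arrays, and the values at 20 and 60 include what the members were chosen on. The comparison of 0.06 with control shares its controls with the choice, which favours positive values there too. In it limma called 0 of the 10 genes and 0 of 23274 probes (0%), beside 711 of unadjusted p below 0.05, and every member had an adjusted p of 1.00. No member had all arrays at 0.06 above all controls, as 0.305% of probes did. The mean of 0.27 at 0.06 depended on single ovaries. It was 0.45 without replicate 2 of that dose and 0.099 without replicate 3, and Cd68 turned to -0.03 without replicate 3.

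Between exposed groups, which share arrays with the comparisons above, differences were smaller. The mean difference over the members was 0.14 log2 for 20 against 0.06, 0.24 for 60 against 0.06 and 0.10 for 60 against 20, and 9, 9 and 8 of the 10 genes had positive values where 62.6%, 44.1% and 36.2% of all probes did. limma called 0 members and 0 of 23274 probes (0%) in each of these comparisons, and 657, 565 and 1320 probes had unadjusted p below 0.05. The arrays at 20 and 60 entered the choice of the members, which favours positive differences against 0.06, and the choice of Dok3 and Igsf6 at 60 favours positive values for them against 20 too. Dok3 differed by 0.36 ± 0.16 log2 for 60 against 0.06 and by 0.33 ± 0.15 for 60 against 20. Cd68 was 0.57 ± 0.34 higher at 60 than at 0.06, and Igsf6 was 0.27 ± 0.24 higher, and none of these differences passed the threshold.

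**Figure D2:**
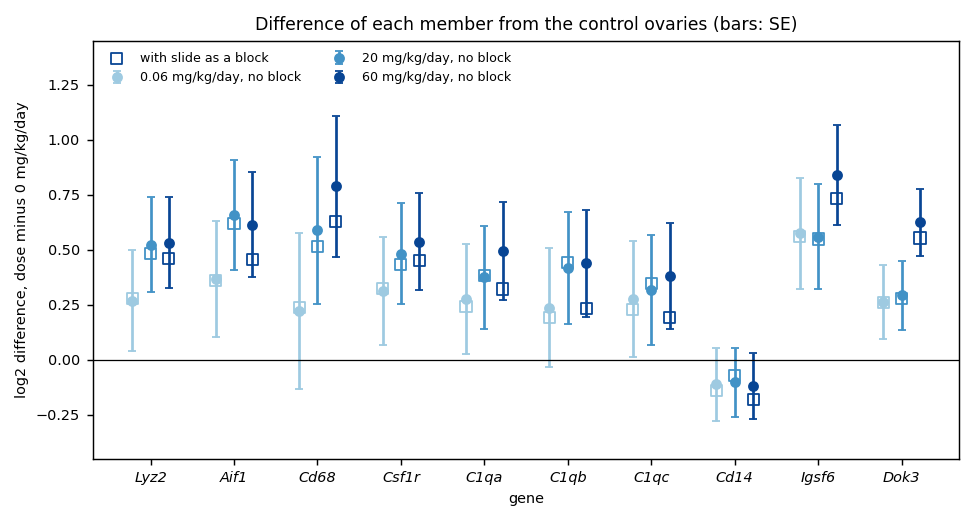
Log2 difference from control (y axis) of each of the 10 genes (x axis) at each exposed dose, as filled points with bars of ± SE, and as open squares when slide is a block in the fit. Cd14 lies below 0 at each dose and the other genes above 0. At 60 mg/kg/day the squares of the C1q genes, at 0.32, 0.23 and 0.19, lie nearer to 0 than the points, at 0.49, 0.44 and 0.38.

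Slide moved with several of these genes. In a limma F-test over the 3 slides, with dose in the fit, 4455 of 23274 probes (19.1%) passed an adjusted p of 0.05, and 4 of the 10 members did: Aif1 (adjusted p = 0.0207), C1qa (0.0250), C1qb (0.0115) and C1qc (0.0263). They were higher on slide 2 than on slide 1 by 0.67, 0.55, 0.59 and 0.51 log2, while slide 3 differed from slide 1 by 0.18, -0.04, -0.11 and -0.16. Cd68 showed 0.82 for slide 2 minus slide 1 and did not pass (limma adjusted p = 0.0635), and the other 5 members had adjusted p from 0.190 for Csf1r to 0.427 for Cd14.

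C1qb shows the pattern array by array. On slide 2 its 6 levels ran from 3.29 through a median of 3.49 to 3.92, while on slide 1 they ran from 2.51 through 2.78 to 3.52 and on slide 3 from 2.36 through 2.97 to 3.37. C1qa on slide 2 ran from 2.15 to 2.65, above 6 of the 7 arrays of slide 1 and all 7 of slide 3. The 1 control on slide 2, replicate 3, was the highest control for each of Aif1, Cd68, C1qa, C1qb and C1qc. Slide 2 held 3 of the 6 arrays at 60 mg/kg/day and 1 array of each other group, and slide 3 held 3 of the 5 arrays at 20.

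**Figure D3:**
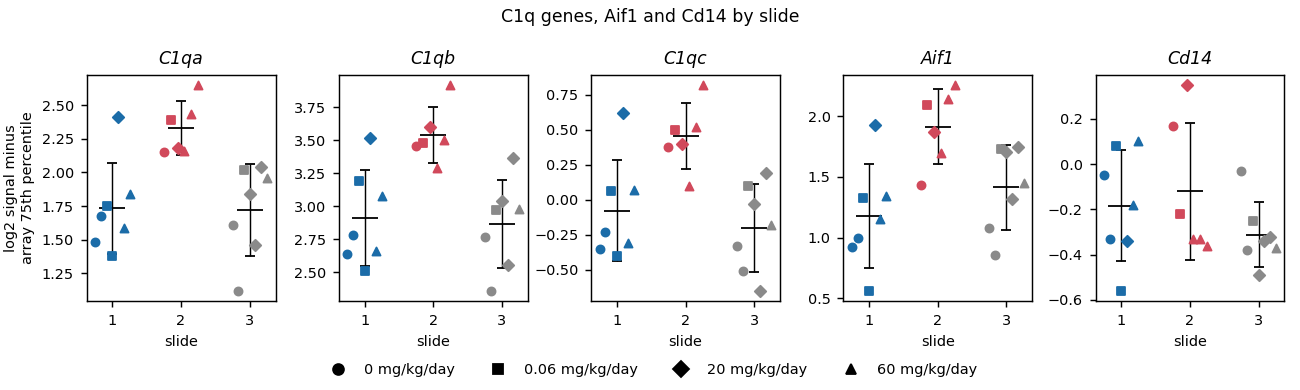
Log2 level relative to the array's 75th percentile (y axis) of C1qa, C1qb, C1qc, Aif1 and Cd14 on slides 1, 2 and 3 (x axis), 1 point per ovary with the marker shape giving the dose, and bars for the slide mean ± SD (n = 7, 6 and 7). The slide 2 means of C1qa, C1qb, C1qc and Aif1 are the highest, and for Cd14 the 3 slides overlap.

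With slide as a block, the differences at 60 mg/kg/day went from 0.49 to 0.32 for C1qa, from 0.44 to 0.23 for C1qb, from 0.38 to 0.19 for C1qc and from 0.61 to 0.45 for Aif1 (log2). The changes were smaller for Igsf6, from 0.84 to 0.73, and Dok3, from 0.62 to 0.55. At 20 mg/kg/day the C1q differences were 0.38, 0.44 and 0.35 with the block, close to those without it. Within slides, the mean over the 10 genes exceeded that of the controls on the same slide by 0.00, 0.72 and 0.24 log2 on slide 1 at the rising doses, by 0.40, 0.20 and 0.37 on slide 2 and by 0.53, 0.40 and 0.61 on slide 3. On slide 2 the values at 0.06 and at 20 compare 1 array with 1 control, and no group has more than 3 arrays on a slide. On slide 1 the lowest dose gave 5 of 10 genes above the control, and every other combination gave 9 or 10. The share of all probes above the controls of the same slide is not given here. These genes are correlated, and the members were partly chosen on the arrays at 20 and 60, so the counts do not replicate each other.

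Other array measures differed between slides too. The 75th percentile had a median of 1419 on slide 1, 1198.5 on slide 2 and 1517 on slide 3, and the number of arrays with a spike-in slope of 0 was 1, 4 and 4. Over the 9 arrays with that slope the median of the member mean was 0.58 log2, and over the other 11 it was 0.21. The part of slide, brightness and the spike-in values in the differences was not tested beyond the fits with slide or the spike-in set as a block, where the mean difference at 60 was 0.38 and 0.49.

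Across the 20 ovaries, 9 of the genes ran together and Cd14 did not. Over the 36 pairs without Cd14, r had a median of 0.76 and a range of 0.55 to 0.97. Csf1r enters by its brighter probe only, with which its second probe had r of 0.07. The median over all pairs of genes was 0.01, and 0.57 marked their 95th percentile. The arrays share brightness, slide and dose, so r is given as a description without a p. After centring each slide the median of the 36 pairs was 0.68 and the lowest 0.41, and after centring each dose group they were 0.68 and 0.45.

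The C1q genes were the closest. C1qb and C1qc had r of 0.97, and C1qa had 0.95 with each of them, with values of 0.91 to 0.94 after slide centring. Of all members C1qa ran closest with the mean of the other 9, at r of 0.95, followed by Aif1 at 0.94 and Cd68 at 0.90, whereas Cd14 had -0.03. Single pairs of Cd14 with the others ran from -0.32 to 0.25, and from -0.55 with Dok3 to 0.10 with C1qb after slide centring.

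**Figure D4:**
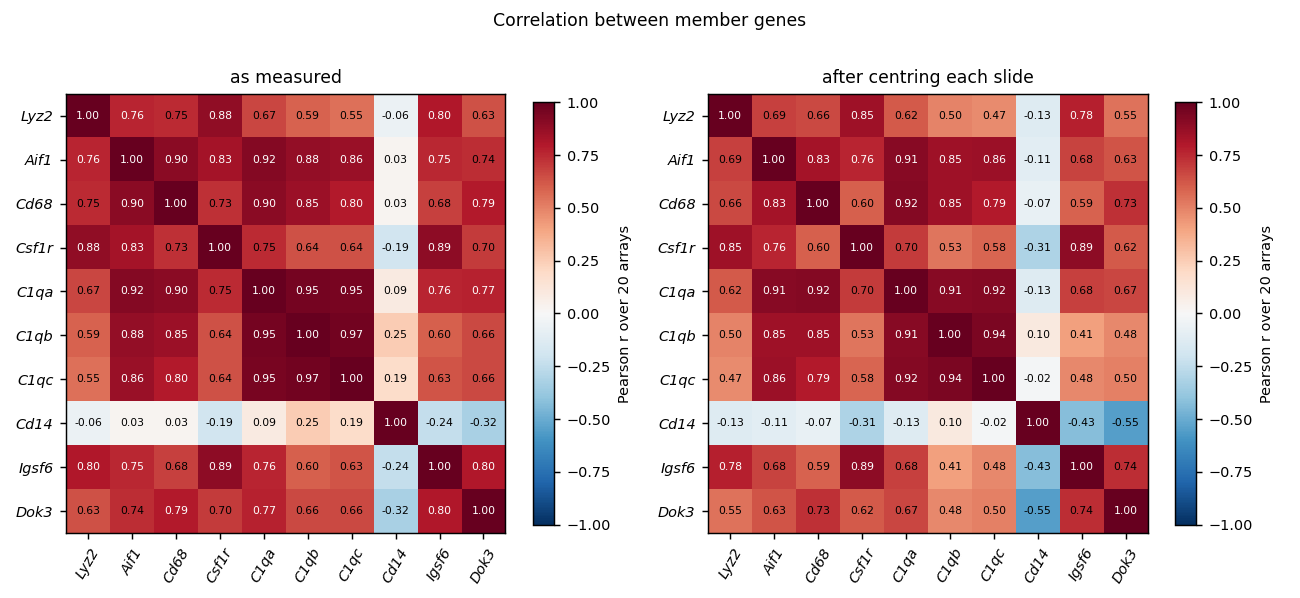
Pearson r between the 10 genes over the 20 ovaries, as measured (left) and after centring each slide (right), with both axes listing the genes and colour giving r. The block of C1qa, C1qb and C1qc is the darkest on the left, at 0.95 to 0.97, and on the left the row of Cd14 is pale, from -0.32 to 0.25.

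The genes whose pattern over the 20 arrays was most like the mean of the standardised members were Laptm5 (r = 0.97), a lysosomal membrane protein of blood cells, and Cd53 (0.97), a tetraspanin of leukocytes. Vav1 (0.96), a signalling protein of blood cells, Lpxn (0.96), Grn (0.95), which encodes progranulin, Slamf9 (0.94), Ms4a6bl1 (0.94), Rgs18 (0.93), Blnk (0.93) and Rac2 (0.93) followed. Of 12449 genes outside the members, 150 had r over 0.8 and 30 had r over 0.9. Laptm5 and Rac2 were in the gene lists below and the other 8 were in none. Mean levels of Cd53 were -0.61, -0.37, -0.19 and -0.03 log2 at the rising doses. Cd53 was picked by its likeness to the members, which were partly chosen at 20 and 60. Its order over the doses therefore carries over from that choice.

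The relation to Cyp17a1 and Akr1c18 was examined because both genes differ greatly between ovaries of this age. Cyp17a1 encodes the theca enzyme that makes androgens from progestins. Its level was 1.71 to 3.86 log2 in 15 ovaries and -3.52 to -2.62 in the other 5, so no correlation over all 20 is given. In the 5 low ovaries, control replicate 3, replicate 1 at 0.06, replicates 2 and 5 at 20 and replicate 5 at 60, the member mean ranked 10, 8, 16, 11 and 20 from the lowest of 20. They thus covered the middle and the top of the range, with member means from 0.21 to 0.87 log2. The ovaries ranked 10, 16 and 20 lay on slide 2, where the median member mean was 0.71, against 0.15 on slide 1 and 0.42 on slide 3. Those ranked 8 and 11 lay on slides 1 and 3. The part of slide in these ranks was not tested.

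Within the 15 ovaries of the upper cluster, r between Cyp17a1 and the members ran from 0.02 for Igsf6 to 0.66 for Cd14. All 10 were positive, and 5 were after the 2 ovaries farthest from the median of Cyp17a1 were left out. For Cd14, Pearson's r was 0.66 and Spearman's rho 0.57, with two-sided permutation p of 0.00842 and 0.0301, and r was 0.57 without the 2 farthest ovaries. With each slide centred it was 0.69, and within slides 1 and 3, 6 arrays each, it was 0.93 and 0.26, while 3 arrays of slide 2 were too few. The slope was 0.21 ± 0.07 log2 of Cd14 per log2 of Cyp17a1, which did not pass in limma (adjusted p = 0.417), with a range of 0.266 to 0.505 over the alternatives. limma called 0 of the 10 members and 0 of 23273 probes (0%) on the Cyp17a1 level, and 2140 had unadjusted p below 0.05.

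Akr1c18, now named Akr1c3, encodes the enzyme that degrades progesterone in the corpus luteum. Its level was 5.28 to 7.05 log2 in 18 ovaries, -4.23 in control replicate 5 and -2.48 in replicate 2 at 0.06 mg/kg/day. These 2 ovaries had the lowest member means of all 20, both -0.24 log2, next to -0.19 in control replicate 1. Aif1, Cd68 and Cd14 had their lowest level of all ovaries in replicate 2 at 0.06, and C1qa, C1qb and Dok3 had theirs in control replicate 5. The pair lies on slides 3 and 1 and holds 1 control and 1 exposed ovary, so it touches both sides of the comparison at 0.06. At 20 and 60 it touches the control side only, since Akr1c18 was 5.31 to 6.21 and 5.28 to 6.73 log2 in those groups. Without control replicate 5 the mean difference of the members was 0.34 at 20 and 0.44 at 60, in place of 0.41 and 0.51. The part of the Akr1c18 level in these differences was not tested.

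Within the upper cluster of 18 ovaries, 5 of the 10 members had positive r with Akr1c18 and 5 negative, from -0.50 for Lyz2 to 0.23 for C1qc. Lyz2 had Pearson's r of -0.50 and Spearman's rho of -0.43, with two-sided permutation p of 0.0317 and 0.0729, and r of -0.41 without the 2 ovaries farthest from the median of Akr1c18. It was -0.67 with each slide centred and -0.69, -0.32 and -0.76 within slides 1, 2 and 3, 6 arrays each. The Lyz2 slope of -0.32 ± 0.13 did not pass in limma (adjusted p = 0.313), nor did -0.40 ± 0.11 with slide as a block (adjusted p = 0.116), and over the alternatives the adjusted p ran from 0.116 to 0.417. limma called 0 of the members and 114 of 23272 probes (0.49%) on the Akr1c18 level. In all 20 relations were computed, and C1qa, C1qb and C1qc had r of 0.13, 0.19 and 0.23 with Akr1c18, which were -0.10, -0.01 and 0.05 with each slide centred. After that centring 2 of the 10 members had positive r. With each dose group centred instead, C1qa, C1qb and C1qc had r of 0.33, 0.43 and 0.40, and Lyz2 had -0.44. The member mean had r of -0.05 as measured, -0.32 with each slide centred and 0.20 with each dose group centred. Without the 2 farthest ovaries 7 of the 10 members had positive r.

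**Figure D5:**
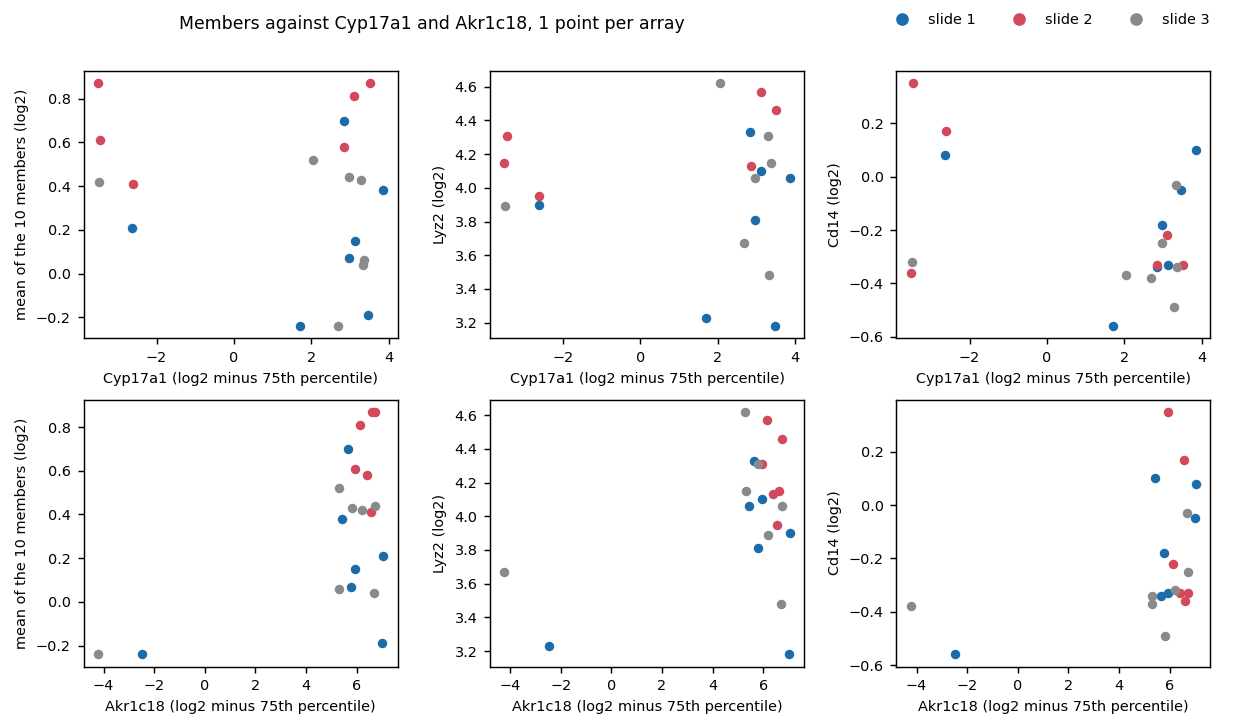
Log2 level of the mean of the 10 genes, of Lyz2 and of Cd14 (y axes) against the log2 level of Cyp17a1 (top row) and of Akr1c18 (bottom row), 1 point per ovary coloured by slide. The 5 ovaries low in Cyp17a1 have member means from 0.21 to 0.87, and the 2 ovaries low in Akr1c18 have the lowest member means, both -0.24.

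Further genes of macrophages and of the members' pathways were taken as lists, each gene by its brightest probe. limma called 0 genes of any list at any dose. Over all 12459 genes, 47.0%, 55.1% and 44.7% were higher than control at the 3 rising doses, with median differences of -0.01, 0.02 and -0.02 log2. Of 26 further macrophage and monocyte genes tested of 32, 22, 24 and 25 were higher, with median differences of 0.23, 0.41 and 0.43. Of the 26 genes, 7 passed the slide test. Adgre1, which encodes the F4/80 antigen, differed by 0.18 ± 0.36, 0.17 ± 0.34 and 0.67 ± 0.33, and the scavenger receptor Cd163 by 0.47 ± 0.39, 0.89 ± 0.37 and 0.66 ± 0.35. The mannose receptor Mrc1 differed by 0.02 ± 0.18, 0.27 ± 0.17 and 0.41 ± 0.17. These genes were partly looked at in the same ovaries before, and their mean ran with the member mean at r of 0.95 over the 20 arrays.

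Around Csf1r, 6, 9 and 7 of 10 genes of its ligands and signalling were higher, with medians of 0.06, 0.17 and 0.04 log2. The ligand gene Csf1 differed from control by 0.16 ± 0.30, 0.40 ± 0.29 and 0.03 ± 0.27 and Il34 by 0.01 ± 0.14, 0.14 ± 0.13 and -0.04 ± 0.13. At 60 both ligand genes were thus within 1 SE of control. Csf1r itself differed there by 0.54 with its brighter probe and by -0.13 ± 0.15 with its second probe. Tyrobp, a signalling adaptor of myeloid receptors, differed by 0.16 ± 0.28, 0.41 ± 0.26 and 0.50 ± 0.25. Of 11 genes of monocyte attraction, 10 were higher at each dose, with medians of 0.20, 0.38 and 0.24, among them Ccl2 with 0.03 ± 0.41, 0.49 ± 0.39 and 0.33 ± 0.37.

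Around C1q, 9, 15 and 12 of 17 other genes of the classical pathway and its regulators were higher, with medians of 0.02, 0.29 and 0.38 log2. C1r and C1s, the proteases that C1q activates, differed by 0.02 ± 0.20 and -0.01 ± 0.22 at 0.06, 0.25 ± 0.19 and 0.29 ± 0.21 at 20, and 0.23 ± 0.18 and 0.21 ± 0.20 at 60. C2 differed by 0.23 ± 0.29, 0.31 ± 0.27 and 0.48 ± 0.26. Of 7 genes of the alternative and lectin pathways, 5, 5 and 6 were higher, with medians of 0.14, 0.16 and 0.22, and Cfp, which encodes properdin, differed by 0.58 ± 0.26, 0.13 ± 0.24 and 0.63 ± 0.23.

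The partners of Cd14 had median differences near 0. Of 15 genes of CD14 partners and toll-like receptor signalling, 5, 9 and 7 were higher, with medians of -0.01, 0.04 and -0.01 log2, and Tlr4 itself differed by -0.19 ± 0.12, -0.04 ± 0.12 and 0.04 ± 0.11. Of 10 Dok adaptors and partners, 2, 5 and 4 were higher, with medians of -0.15, 0.07 and -0.05. Dok1, the relative of Dok3 listed first, differed by -0.29 ± 0.24, -0.27 ± 0.22 and -0.34 ± 0.21. MHC class II genes, used by antigen-presenting cells, were higher in 3, 8 and 5 of 8, with medians of -0.03, 0.13 and 0.06, and genes of the uptake of dying cells in 10, 11 and 11 of 17, with medians of 0.08, 0.15 and 0.08. The receptor Mertk, which binds dying cells, differed by 0.05 ± 0.24, 0.10 ± 0.23 and 0.08 ± 0.22.

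Markers of other cell types are given beside these values. Endothelial markers were higher than control in 5, 0 and 0 of 9 genes at the rising doses, erythrocyte markers in 4, 0 and 1 of 6, and granulosa markers in 1, 1 and 1 of 8. The summed linear level of the granulosa markers, in units of the 75th percentile, was 78.2 to 130.02 in controls, 68.9 to 102.2 at 0.06, 68.4 to 83.0 at 20 and 63.5 to 110.3 at 60. Over the 20 arrays the mean of the granulosa markers ran against the member mean, with r of -0.67. This was the lowest r of any list, and the highest was 0.95 for the further macrophage genes. Endothelial and erythrocyte markers had r of -0.50 and -0.49. Summed endothelial levels were 10.3 to 15.7, 8.68 to 18.9, 9.11 to 13.9 and 8.23 to 11.3, and summed erythrocyte levels 84.2 to 196.2, 115.9 to 157.4, 63.8 to 124.3 and 74.9 to 133.9. The same sum over the 26 further macrophage genes was 16.2 to 29.2 in controls, 17.96 to 32.4, 22.7 to 31.2 and 20.6 to 39.5. The part of these cell types in the members' values was not tested.

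Marker lists of other leukocytes are added for comparison. T cell markers were higher in 3, 4 and 3 of 10 genes, and Cd3e, Cd5, Cd28 and Trat1 were not well above background on enough arrays to be kept. NK cell markers were higher in 3, 1 and 0 of 5, B cell markers in 4, 1 and 0 of 4, neutrophil markers in 4, 3 and 4 of 8, mast cell markers in 4, 4 and 2 of 8 and dendritic cell markers in 2, 5 and 1 of 5. The summed T cell level was 0.59 to 0.76 of the 75th percentile in controls and 0.57 to 0.68 at 60. Among the remaining lists, adipocyte markers were higher in 6, 2 and 2 of 8, oviduct markers in 2, 2 and 2 of 9, theca and interstitial markers in 3, 3 and 4 of 8, corpus luteum markers in 10, 7 and 8 of 11 and oocyte markers in 0, 1 and 7 of 8.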

How the data were processed

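Ovarian RNA of 20 rats, 1 animal per litter per the labels, was hybridised to 1-colour Agilent arrays, and the labelled dose gave the groups. Per the file headers, spot intensity was extracted with Feature Extraction 11.5.1.1, whose processed signal is background-corrected intensity. A deposited table gives the authors' own log2 values. Their column medians ran from -0.07 to 0.08, and their deviations from probe means correlated with those of the scanner values at r of 0.947 to 0.991. To what these values were centred is unknown, and the normalization is not given in the sources used here. The submitters removed replicate 4 of the lowest dose, which was not analysed here.

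From the scanner intensity, log2 of the processed signal minus log2 of the array's 75th percentile over non-control spots was computed. Outlier spots were left out, spots of a probe were averaged, 32 of 30367 probes without a remaining spot on some array were dropped, and the 23274 probes well above background on at least 4 arrays were kept. Transcripts were matched to the RefSeq rat gene table for assembly GRCr8, which named 18737 probes with 1 symbol, 0 with several and left 11598 unnamed. The array design uses another build, so no probe coordinates are printed.

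limma 3.58.1 in R 4.3.3 was run on all 20 arrays with a mean per group, with Benjamini-Hochberg adjustment over all probes kept and a threshold of 0.05. Slide was tested with dose in the fit. Slopes on the Cyp17a1 and Akr1c18 levels were fitted within the upper cluster of arrays, parted at the largest gap, with permutation tests of 100000 resamples. The scripts were tested on simulated data. Each gene is represented by its brightest probe.

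Named genes are the members, Cyp17a1 and Akr1c18, the 10 genes most like the member mean and the first 3 measured genes of each pathway list, of which some are given here. The members and the lists were chosen with earlier results of these data known. Also tried were normexp background correction (offset 50), quantile normalization, other percentile bases and filters, slide, spike-in set or replicate number as a block, each slide or array left out, the authors' table and the mean over a gene's probes. The files hold no mean signal, so normexp used the median signal and median background. The number of arrays limits the precision.

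Replicate numbers were checked as possible pairs. Over 27 pairs of arrays with the same number in different groups, deviations from group means had a median r of 0.03 (-0.31 to 0.35). The median r was -0.02 over 122 pairs with different numbers. No pairing by number was seen, though values this spread cannot exclude it, and the labels give each animal a litter of its own.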

Additional observations from a re-analysis of the deposited data

Results flagged for a closer look

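Among 44 sets of values looked at, each 1 gene or mean in 1 dose group, 2 held a single array far from the rest of its group by Dixon's criterion, which flags about 1 in 20 such sets by chance. The lowest control for Csf1r was replicate 1, on slide 1, with a log2 level of -3.13, while the other 4 controls lay between -2.70 and -2.55. The highest Cd14 array at 20 mg/kg/day was replicate 2, on slide 2, with 0.35, while the other 4 lay between -0.49 and -0.32.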

How the results depend on the processing

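Of 320 recomputed values, 316 were labelled the same as the main value. For a count this meant within a fixed fold of the main count, so single calls could change. For a mean difference it meant a shift below 0.31 log2, the SD of the member mean within groups, whatever its sign. At 0.06, where the main value was 0.27, a change of sign could thus go unlabelled. Every recomputed mean difference of the members was positive. The mean difference of the members was 0.10 to 0.45 log2 at 0.06 mg/kg/day, 0.34 to 0.51 at 20 and 0.44 to 0.61 at 60 when single arrays were left out, and 0.14 to 0.55, 0.31 to 0.53 and 0.38 to 0.64 under the other alternatives. At 0.06 it was 0.55 without slide 1 and 0.14 without slide 3. Cd68 at 0.06 turned to -0.09 without slide 3, and Cd14 turned to 0.07 at 20 without slide 3 and to 0.05 at 60 without slide 2. Without Cd14, an alternative chosen after seeing the data, the means were 0.31, 0.47 and 0.58. The count of probes called between dose groups was 0 in every comparison and every alternative, single arrays left out included, except 60 against 20 with the replicate number as a block. With normexp, 2696 probes were called between slides in place of 4455 and 2 on the Cyp17a1 level in place of 0. With slide as a block, 179 were called on the Akr1c18 level in place of 114, and without a filter 83. Members called between slides numbered 4 or 5. The cause of these shifts was not tested.

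Samples share replicate numbers but come from independent litters. With the replicate number as a block, 2 probes were called for 60 against 20 in place of 0, and the mean differences of the members were 0.26, 0.41 and 0.52 at the rising doses. It changed no other call.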
